A study of Mus musculus with 33 samples.

Results

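The genes of the hedgehog pathway were followed through the hair growth cycle of mouse dorsal skin. The 9 genes described are Shh, Ptch1, Gli1, Gli2, Gli3, Hhip, Smo, Cdon and Boc, which were chosen by name, out of 18193 genes with at least 1 probe set carrying a single gene symbol. They had 23 such probe sets, of which 20 passed the filter on low signals, and the probe set with the highest mean log2 signal over all arrays represented each gene. All 9 representative probe sets passed the filter.

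Skin from the upper-mid back of wild-type C57BL/6 mice had been profiled on 33 arrays, each holding RNA of 1 mouse. A total of 10 arrays, all of female mice, followed depilation of resting skin with a wax/rosin mixture at 7 weeks of age, with 2 arrays at each of D3, D5, D8, D12 and D17 (D, days after depilation). The design text places D3 in early anagen, D5 in mid anagen, both D8 and D12 in late anagen, and D17 in early catagen. The other 23 arrays, of males and females, followed the natural second growth cycle, with early anagen at P23 and P25 (2 arrays each), mid anagen at P27 (3), late anagen at P29 (3) and P34 (1), early catagen at P37 and P39 (3 each), mid catagen at P41 (3) and telogen at P44 (3), where P is the postnatal day. The phases are those of the series' design text; the labels of the P41, P44 and depilated samples themselves carry the words early anagen. The depilated mice were older than every mouse of the natural cycle, so depilation and age cannot be told apart where the cycles are compared, and the natural groups also held males. Anagen is the growth phase of the follicle, catagen its regression and telogen its rest.

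Sonic hedgehog is a secreted ligand that binds Patched receptors and thereby relieves the inhibition of Smoothened, which changes the processing and activity of the Gli transcription factors. Ptch1, Gli1 and Hhip are themselves induced by the pathway, so that their transcripts are widely read as its output. In skin, Shh made by the follicle epithelium acts on epithelial and dermal cells and is needed for the downgrowth of the follicle. Whole skin was measured, so fewer cells of a type and less RNA per cell cannot be told apart for any gene below.

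Promoter windows from RefSeq (GRCm38.p6, bases 250 before to 50 after a start site) were matched for 6 of the 9 genes, Ptch1, Gli2, Gli3, Hhip, Smo and Cdon. Those of Ptch1, Gli2 and Hhip are shown. These genes were each higher in early anagen than in telogen and at D5 than at D3, as was Gli3, whose window is not shown. The capitals mark the letters ACCACCC on the reverse strand (printed as GGGTGGT), the inner bases of the GLI recognition sequence GACCACCCA.
Ptch1, chr13:63565686-63565985, minus strand: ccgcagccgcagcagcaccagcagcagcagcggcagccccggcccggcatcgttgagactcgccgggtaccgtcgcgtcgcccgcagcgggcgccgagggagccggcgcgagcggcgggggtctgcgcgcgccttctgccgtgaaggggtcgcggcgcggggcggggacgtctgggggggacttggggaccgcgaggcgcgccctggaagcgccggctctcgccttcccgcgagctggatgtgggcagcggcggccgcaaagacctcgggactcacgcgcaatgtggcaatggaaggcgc
Hhip, chr8:80057959-80058258, minus strand: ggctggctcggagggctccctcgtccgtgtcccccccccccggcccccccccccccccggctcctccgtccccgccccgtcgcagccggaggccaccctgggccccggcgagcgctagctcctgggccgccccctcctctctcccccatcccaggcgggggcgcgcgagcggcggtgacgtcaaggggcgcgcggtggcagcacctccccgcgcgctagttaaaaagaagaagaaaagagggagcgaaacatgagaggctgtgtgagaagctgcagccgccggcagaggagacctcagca
Gli2, chr1:119053570-119053869, minus strand: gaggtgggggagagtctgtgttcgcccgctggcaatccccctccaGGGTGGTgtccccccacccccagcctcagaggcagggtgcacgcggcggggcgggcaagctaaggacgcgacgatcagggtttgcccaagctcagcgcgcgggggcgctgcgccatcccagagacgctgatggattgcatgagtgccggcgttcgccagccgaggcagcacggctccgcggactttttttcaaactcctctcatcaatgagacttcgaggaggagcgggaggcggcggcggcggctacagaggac
The full GACCACCCA, searched on both strands, was found in 0 of the 6 windows, and in 83 of all 32851 promoter windows (0.253%). The shorter ACCACCC lies within it and was found in 1 of the 6 windows, that of Gli2 at base 46, against 1514 of all windows (4.61%). These are matches of letters in one window. The start site used lies inside the outer end of the annotated gene by 7725 bases for Ptch1, 30548 for Cdon, 786 for Gli2 and 52 for Hhip.

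Signals are linear MAS 5.0 intensities. Differences are on the log2 scale after a floor of 34.6 was set, with the standard error after the ± sign, and a gene passed the test where limma's Benjamini-Hochberg adjusted p over 26988 probe sets was under 0.05. Levels of different genes come from different probes and are not compared. Across the 6 phases of the natural cycle all 9 genes passed the F test, which 72.6% of all probe sets did. Across the 5 time points after depilation 7 passed, against 10.2% of all probe sets, and Smo and Boc did not (adjusted p = 0.286 and 0.554). The call of Boc in the natural cycle was lost without P44 replicate 2 or 3. After depilation the calls of Ptch1, Gli1 and Cdon were lost without any 1 of the 8 arrays of D3, D8, D12 and D17, and that of Gli3 without either D3 array, which left 3 genes.

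**Figure D1:**
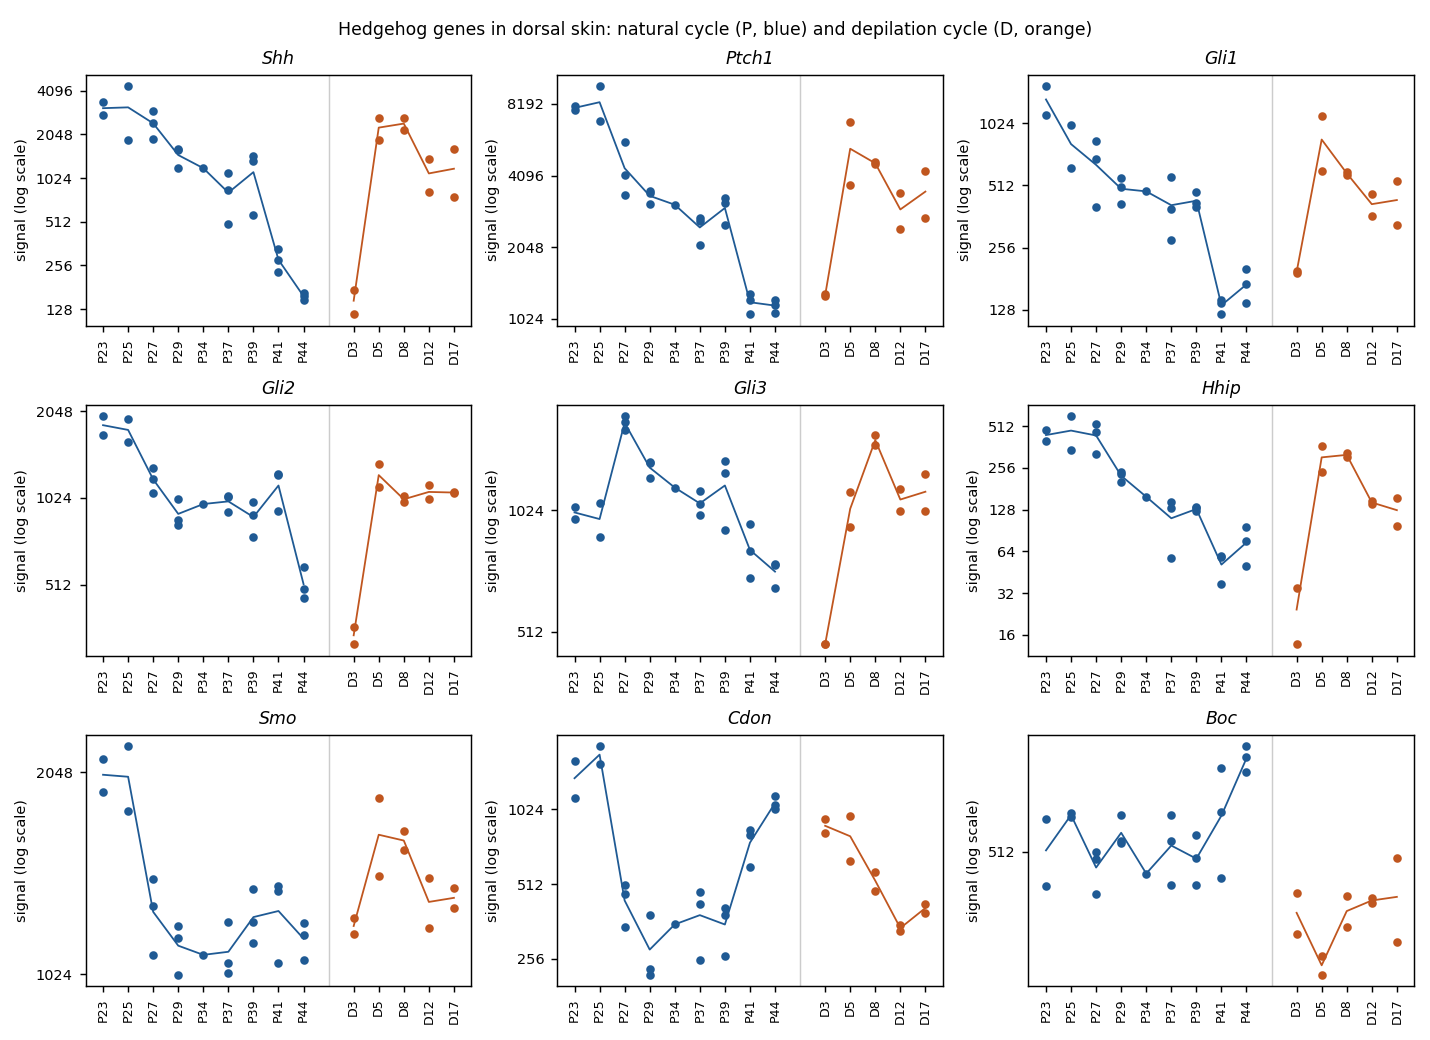
Signal of the 9 genes (y axis, log scale) on each array (points) and as time-point mean (lines) at P23 to P44 of the natural cycle (blue) and D3 to D17 after depilation (orange). Shh, Ptch1, Gli1 and Hhip were high at P23 and P25 and low at P41, P44 and D3, while Cdon was lowest at P29.

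Shh, the ligand, had the widest range of the 9 genes by their representative probe sets. Its mean was highest at P25 and lowest at P44, 20.0-fold apart, and in the depilation cycle highest at D8 and lowest at D3, 16.6-fold apart. The P23 arrays gave 2759.8 and 3435.0, the P25 arrays 1870.2 and 4406.4, and the P27 arrays 1888.4, 2452.9 and 2969.5. P29 gave 1590.0, 1625.7 and 1204.6, and P34 gave 1196.8. The 3 earliest time points thus overlapped, whereas every P29 array was below every array before it. Early catagen spread widely, with 1100.9, 493.9 and 842.8 at P37 and 571.9, 1461.3 and 1339.0 at P39. Mid catagen gave 277.0, 229.9 and 333.0 at P41, and telogen 157.7, 166.4 and 147.3 at P44. After depilation Shh was 174.5 and 118.4 at D3, 2671.0 and 1880.6 at D5, 2181.2 and 2671.0 at D8, 1385.3 and 816.8 at D12, and 756.7 and 1616.2 at D17. The D3 arrays overlapped telogen, and the D5 and D8 arrays overlapped natural mid anagen. In the order of means from P25 down to D3, the ranges of neighbouring time points overlapped except between D5 and P29, between P29 and the single P34 array, between P37 and P41 and between P41 and P44.

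Among the receptors, Ptch1, which binds the ligand, ran close to it. Its early anagen signals were 7753.1, 8009.8, 6910.1 and 9747.1, those of mid anagen 3390.3, 4123.2 and 5676.5, and those of late anagen at P29 3102.1, 3463.8 and 3532.3. Early catagen lay between 2088.8 and 3287.9 with no overlap with mid catagen, at 1071.9, 1233.8 and 1301.6. Telogen, at 1230.0, 1085.3 and 1176.2, overlapped mid catagen, and the D3 arrays, at 1273.8 and 1298.3, lay within the range of mid catagen and above the telogen arrays. D5 gave 6881.5 and 3737.1 and D8 4559.9 and 4667.5, both pairs above every array of D3, mid catagen and telogen.

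Smo, the signal transducer that Ptch1 inhibits, had a narrow range, 1.85-fold between the highest and lowest natural time point and 1.37-fold after depilation. It was 1915.7, 2144.8, 1794.8 and 2237.9 in early anagen, and no other natural array exceeded 1421.5. After depilation it was 1242.8 and 1175.3 at D3, 1872.0 and 1434.0 at D5 and 1568.1 and 1672.7 at D8, and the D5 and D8 arrays were above those of D3. The co-receptors Cdon and Boc, which bind the ligand at the cell surface, ran differently from the ligand. Cdon was 1600.1, 1138.1, 1841.0 and 1567.6 in early anagen, 382.3, 220.9 and 232.2 at P29, and 1032.9, 1162.8 and 1065.1 in telogen, a pattern of high values at both ends of the natural cycle. P27 (466.5, 343.3 and 508.4) and early catagen (253.3 to 473.7) lay near the low point, and mid catagen, at 807.9, 848.2 and 600.7, lay between early catagen and telogen without overlap with either. After depilation it was highest at D3, 938.7 and 821.2, and lowest at D12, 329.8 and 350.5. Boc was 677.8, 716.8 and 743.5 in telogen, above every other array except the P41 value of 689.4, and its natural time-point means lay between 473.8 and 712.7. After depilation it was 442.3 and 382.2 at D3, 331.3 and 353.3 at D5, 437.5 and 392.1 at D8, 426.7 and 434.6 at D12 and 500.4 and 372.0 at D17, so every depilated array was below every telogen array.

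Hhip, a membrane protein that sequesters the ligand, gave 399.5, 484.5, 347.2 and 605.1 in early anagen and 464.8, 321.7 and 529.9 at P27. It was 230.5, 240.3 and 203.8 at P29, 57.9, 37.4 and 59.1 at P41 and 76.4, 96.2 and 50.3 in telogen. D3 gave 13.7 and 35.1, the first under the floor, so differences that involve D3 are bounds for this gene. D5 gave 369.8 and 240.5, D8 307.4 and 328.9, D12 139.9 and 148.8 and D17 98.0 and 156.1, with D5 and D8 above the later arrays.

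Of the transcription factors, Gli1, an activator that is induced by the pathway, was 1117.8, 1551.6, 622.2 and 1001.4 in early anagen, with the P25 pair the lower one, 143.8, 138.5 and 122.2 at P41 and 138.0, 201.9 and 170.3 in telogen. The D3 arrays, at 197.0 and 193.7, fell in the telogen range, and the D5 arrays, at 1108.0 and 600.2, in that of early anagen except for the lower one. Gli2, the main activator in skin, differed in its timing. It was 1966.3, 1692.6, 1604.0 and 1919.2 in early anagen, still 922.1, 1233.0 and 1236.7 at mid catagen, when Shh, Ptch1 and Gli1 were low, and 589.4, 461.0 and 494.2 in telogen. D3, at 318.6 and 366.1, was below telogen, and the 8 later depilated arrays were between 990.5 and 1342.3. Gli3, which acts largely as a repressor, peaked later than Gli1 and Gli2. It gave 1615.4, 1749.8 and 1689.7 at P27 against 976.5, 1045.9, 880.7 and 1067.0 in early anagen. After depilation its mean was highest at D8, 1481.4 and 1572.0, as were those of Shh and Hhip. Gli3 was lowest at D3, where the arrays gave 477.2 and 477.8, below every telogen array (658.4, 755.9 and 751.6).

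Entry into growth was read from early anagen against telogen, which in these data are the first and the last phase of the natural cycle. Of the 9 genes 7 were higher and 0 lower past the test, against 26.8% of all probe sets called in either direction and 13.5% higher. Shh differed by 4.24 ± 0.27 (adjusted p = 0.000316, limma), Ptch1 by 2.79 ± 0.14, Gli1 by 2.60 ± 0.30, Hhip by 2.65 ± 0.27 and Gli2 by 1.80 ± 0.14. Smo rose by 0.80 ± 0.12 and Gli3 by 0.46 ± 0.12 (adjusted p = 0.0281). The call for Gli3 was lost without any 1 of 6 arrays, P23 replicates 1 and 2, P25 replicate 2 or P44 replicates 1, 2 and 3, at adjusted p between 0.0578 and 0.0733. Cdon differed by 0.48 (95% interval 0.07 to 0.89, adjusted p = 0.0795) and Boc by -0.38 (-0.69 to -0.08, adjusted p = 0.0637). Of the other probe sets, that of Shh was higher by at least 2.22 (adjusted p = 0.00919), while those of Hhip differed by at least 1.63 (adjusted p = 0.0112), 1.23 (adjusted p = 0.0179) and 1.08 (adjusted p = 0.0593), each with at least 1 telogen array under the floor. Another Gli3 probe set was higher by 0.87 ± 0.20 and a further one differed by 0.65 ± 0.27 (adjusted p = 0.119). The call for Smo was lost with P25 alone as early anagen (adjusted p = 0.0575). The median difference of the 9 genes was 1.80, and that of all probe sets -0.05. The 4 markers of dividing cells (Mki67, Top2a, Ccnb2, Birc5) were also all higher, with summed signals of 13950 to 18610 in early anagen and 1381 to 1828 in telogen, as were 4 of 6 dermal papilla markers, with sums of 3758 to 6482 and 1225 to 1648. Inner root sheath markers were higher for 5 of 5, with sums of 24160 to 64390 and 1230 to 4713, and hair shaft markers for 1 of 5. Lower were 3 of 3 leukocyte, 3 of 4 suprabasal and cornified epidermis and 2 of 5 muscle markers. The part of these cell types in the result was not tested.

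From early to mid anagen 5 of the 9 genes passed, against 19.7% of all probe sets. Cdon fell by 1.80 ± 0.21 (adjusted p = 0.00368), Ptch1 by 0.90 ± 0.20, Smo by 0.68 ± 0.14 and Gli2 by 0.60 ± 0.13, while Gli3 rose by 0.77 ± 0.12 (adjusted p = 0.00759). Shh differed by -0.31 (-1.01 to 0.38), Gli1 by -0.73 (-1.55 to 0.09), Hhip by -0.06 (-0.63 to 0.50) and Boc by -0.18 (-0.49 to 0.14). The calls for Ptch1 and Gli2 were each lost without P23 replicate 1, P27 replicate 1 or P27 replicate 2, and that of Smo without either of these P27 arrays, so that 2 genes passed without P27 replicate 1 or 2. Markers of dermal fibroblasts were lower in mid anagen as well, 4 of 6. Their sums were 94120 to 107200 at mid anagen and 121900 to 154400 at early anagen. Also lower were 4 of 5 muscle, 2 of 3 leukocyte, 2 of 4 suprabasal and cornified epidermis, 1 of 2 endothelium and 1 of 1 Schwann cell markers. Hair shaft and inner root sheath markers were higher, 5 of 5 each, and of 2 sebaceous gland markers 1 was higher and 1 lower. The part of these cell types was not tested. Probe sets of one gene differed here. Of the 3 other probe sets of Hhip, 2 were higher at P27, by 1.76 ± 0.27 (adjusted p = 0.00821) and 1.10 ± 0.29 (adjusted p = 0.0384), and the third differed by 0.71 ± 0.30 (adjusted p = 0.137). The first of these gave 550.2, 251.9 and 339.3 at P27 against 89.5 to 136.0 in early anagen. Another Ptch1 probe set differed by 0.55 ± 0.36 (adjusted p = 0.307), so the direction of these 2 genes between the phases depends on the probe set.

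**Figure D2:**
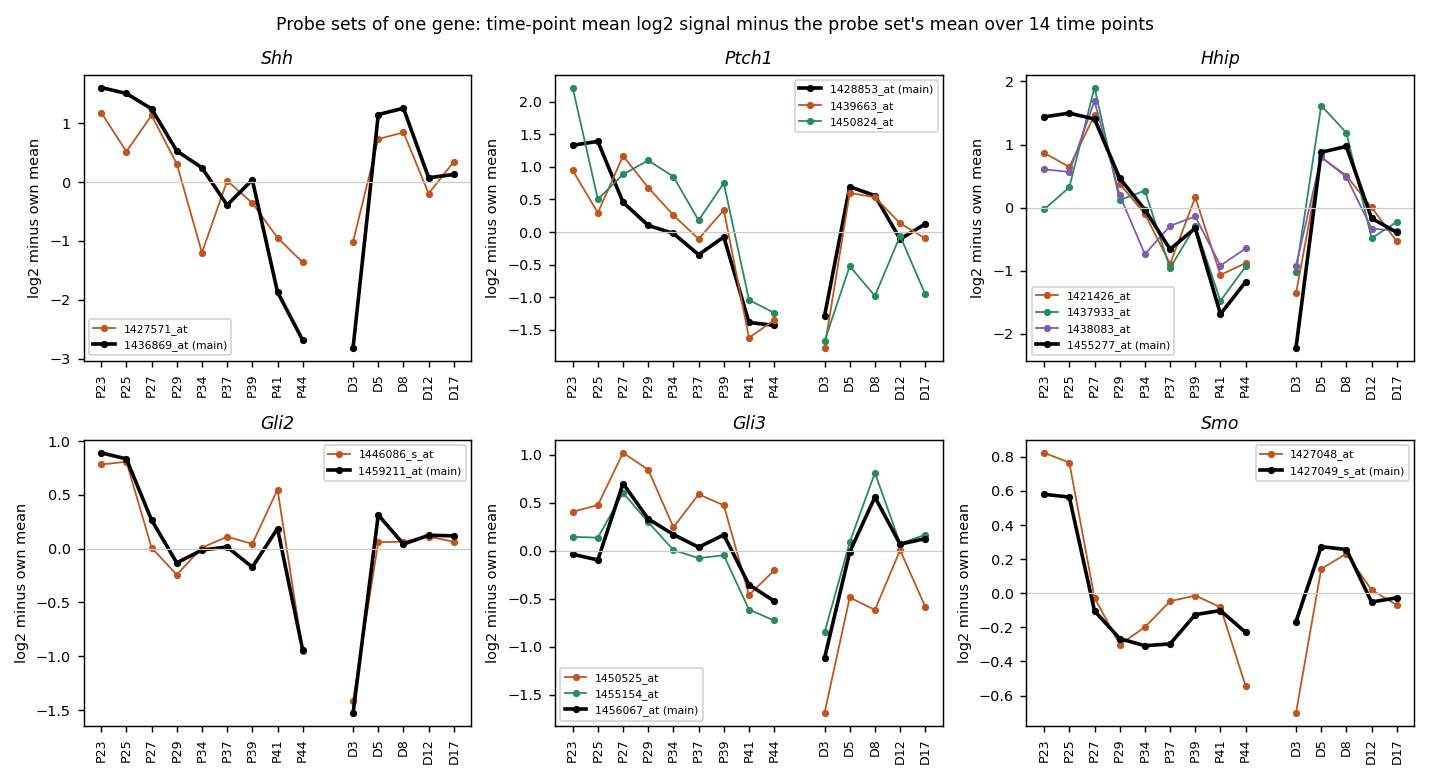
Time-point mean log2 signal of each kept probe set of 6 genes, minus the probe set's own mean over 14 time points (y axis), along the natural and the depilation cycle (x axis), with the representative probe set in black. The probe sets of Gli2 ran together, whereas those of Hhip and Ptch1 differed at P23 to P27.

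No gene passed from mid to late anagen or from late anagen to early catagen, where limma called 0 of all probe sets (0%). Unadjusted p under 0.05 was reached by 5 of the 9 genes and 5323 probe sets in the first step and by 1 and 3596 in the second, and the equal-variance test of the study's methods gave 1 and 0 of the 9 genes at its threshold of unadjusted p under 0.01, and 0 in both after Benjamini-Hochberg adjustment. The study ran that test on transformed values of its hair cycle-regulated probe sets. Here it was run on the deposited MAS 5.0 data, not restricted to those probe sets. Every P29 array of Shh, Gli2, Gli3 and Hhip was below every P27 array, with differences of -0.71, -0.40, -0.37 and -0.94, while for Boc every P29 array was above (0.18), against 28.1% of all probe sets whose groups did not overlap. The other 4 genes overlapped, with differences of -0.68 for Cdon, -0.35 for Ptch1, -0.33 for Gli1 and -0.16 for Smo. In early catagen every Hhip array was again below every P29 array, at a difference of -0.96 (-1.56 to -0.36, adjusted p = 0.232), where 7.69% of all probe sets did not overlap, and the other 8 genes differed by between -0.71 (Shh) and 0.41 (Cdon).

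At mid catagen against early catagen 6 of 9 genes passed, against 35.3% of all probe sets. Shh fell by 1.69 ± 0.35, Gli1 by 1.62 ± 0.19 (adjusted p = 0.000522), Ptch1 by 1.18 ± 0.15, Hhip by 1.20 ± 0.29 and Gli3 by 0.46 ± 0.15, while Cdon rose by 1.06 ± 0.23. Gli2 differed by 0.27 (-0.05 to 0.58), Boc by 0.17 (-0.14 to 0.49) and Smo by 0.11 (-0.18 to 0.40). The other probe set of Shh differed by -0.78 ± 0.37 (adjusted p = 0.123), with 1 array of each phase under the floor. Another Boc probe set was higher by 0.49 ± 0.14 (adjusted p = 0.0216). Another Hhip probe set was lower by a difference of -0.85 (adjusted p = 0.032), and further ones differed by -0.70 each (adjusted p = 0.195 and 0.0642). These Hhip probe sets all had mid catagen arrays under the floor. The calls of Shh, Hhip and Boc thus depend on the probe set. The call for Hhip was lost without P41 replicate 2 (adjusted p = 0.0642), and that for Gli3 without any 1 of 6 arrays (P37 replicates 1 and 3, P39 replicates 2 and 3, P41 replicates 1 and 2). Markers of dividing cells fell as well, 4 of 4, with sums of 1502 to 3020 at mid catagen and 4330 to 8195 at early catagen. Hair shaft markers fell, 5 of 5, with sums of 39020 to 56220 at mid catagen and 116400 to 139100 at early catagen, as did 4 of 5 inner root sheath markers, with sums of 92480 to 105400 and 134000 to 166200. Leukocyte markers were higher at mid catagen, 3 of 3, with sums of 18350 to 26510 and 6007 to 17020 at early catagen, as were 4 of 5 muscle markers, with sums of 65910 to 70560 and 38620 to 54270. The part of these cell types in the result was not tested.

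In telogen against mid catagen 2 genes passed, both lower, against 5.88% of all probe sets called in either direction and 3.88% lower. Gli2 fell by 1.13 ± 0.17 (adjusted p = 0.0190) and Shh by 0.82 ± 0.16 (adjusted p = 0.0418), both without overlap of the arrays, as were 32.2% of all probe sets. Leaving out any 1 of the 6 arrays ended the call of Shh (adjusted p 0.0642 to 0.130), and leaving out P41 replicate 2 or 3 or P44 replicate 2 or 3 ended that of Gli2 (0.0646 to 0.0859). Cdon differed by 0.55 (0.15 to 0.94, adjusted p = 0.109), and the other 6 genes by between -0.17 (Gli3) and 0.51 (Hhip). The other probe set of Gli2 fell by 1.50 ± 0.19 (adjusted p = 0.0104), and that of Shh differed by -0.42 ± 0.21 (adjusted p = 0.274), with 2 telogen and 1 mid catagen arrays under the floor. Hair shaft markers fell, 5 of 5, with sums of 399.7 to 1590 in telogen and 39020 to 56220 in mid catagen, as did 5 of 5 inner root sheath markers, with sums of 1230 to 4713 and 92480 to 105400. Their part in the result was not tested.

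Telogen against late anagen gave 8 of 9 genes, against 44.6% of all probe sets, with Shh lower by a difference of -3.22 ± 0.16, Hhip of -1.64 ± 0.25, Gli1 of -1.54 ± 0.19, Ptch1 of -1.53 ± 0.13, Gli3 of -0.86 ± 0.13 and Gli2 of -0.81 ± 0.15. Cdon was higher by 2.01 ± 0.23 and Boc by 0.38 ± 0.12, the call of Boc being lost without P29 replicate 1 or 2 or P44 replicate 2 or 3. Smo differed by 0.04 (-0.28 to 0.35). Markers of dividing cells were lower in telogen, 4 of 4, with sums of 1381 to 1828 in telogen and 9607 to 10160 in late anagen, as were 5 of 5 hair shaft and 5 of 5 inner root sheath markers, while 3 of 3 leukocyte, 5 of 5 muscle and 3 of 6 fibroblast markers were higher, and the part of these cell types was not tested.

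**Figure D3:**
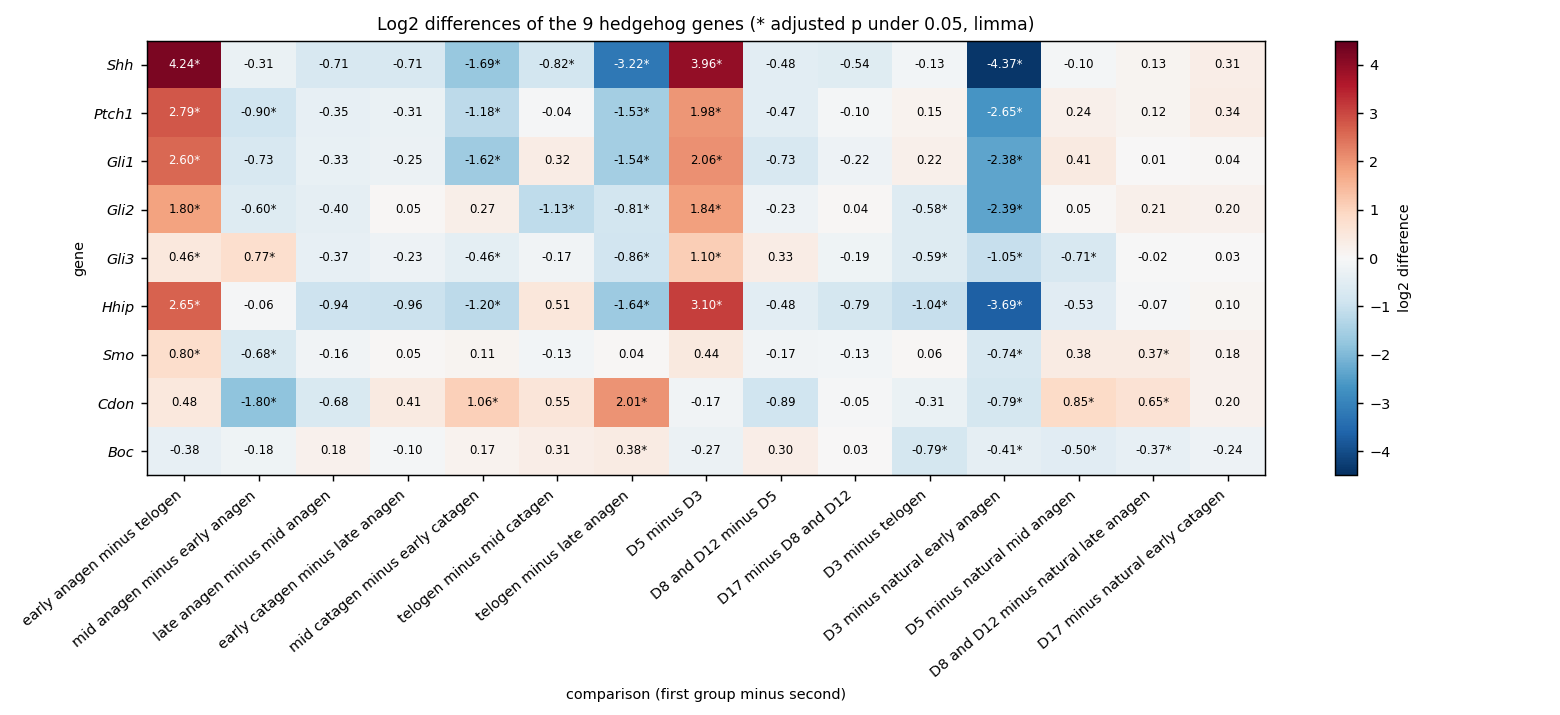
Log2 difference (colour and number) of the 9 genes (rows) in each pairwise comparison (columns, first group minus second), with an asterisk where the adjusted p of limma was under 0.05. The D3 minus natural early anagen column is negative and marked for all 9 genes.

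After depilation Shh, Ptch1, Gli1, Gli2, Gli3 and Hhip were lower at D3 than at D5. Cdon had its highest mean at D3 and Boc its lowest at D5. Of the 9 genes 6 were higher at D5 than at D3 and 0 lower, against 2.66% of all probe sets called and 1.95% higher. Shh rose by 3.96 ± 0.42 (adjusted p = 0.00633), Hhip by at least 3.10 (adjusted p = 0.00348), Gli1 by 2.06 ± 0.33, Ptch1 by 1.98 ± 0.34, Gli2 by 1.84 ± 0.16 (adjusted p = 0.00356) and Gli3 by 1.10 ± 0.18. Smo differed by 0.44 (0.02 to 0.85, adjusted p = 0.222), Cdon by -0.17 (-0.68 to 0.34) and Boc by -0.27 (-0.69 to 0.16). Of the inner root sheath markers 5 of 5 were higher, with sums of 33900 to 71210 at D5 and 257.9 to 295.7 at D3, and of the markers of dividing cells 0 of 4 passed, with sums of 11910 to 15050 at D5 and 8507 to 10940 at D3. Their part in the result was not tested. The calls of Ptch1, Gli1 and Gli3 rest on the 2 arrays of each time point: 3 genes passed without D3 replicate 1 or 2 or D8 replicate 1 or 2, and Gli1 and Ptch1 were lost without D5 replicate 1 and Gli3 without D5 replicate 2. The methods' test gave 3 of the 9 genes at unadjusted p under 0.01, and 0 of the 9 and 0 of all probe sets after Benjamini-Hochberg adjustment. From D5 to D8 and D12 no gene passed, against 0.545% of all probe sets, with unadjusted p under 0.05 for 2 genes, Gli1 at a difference of -0.73 and Cdon at -0.89 (adjusted p = 0.0953). The other 7 genes differed by between -0.48 (Shh) and 0.33 (Gli3). From D8 and D12 to D17 limma called 0% of all probe sets (948 at unadjusted p under 0.05, 1 of the 9 genes), and the 9 differences lay between -0.79 (Hhip) and 0.04 (Gli2). In these 2 steps the methods' test gave 1 and 0 of the 9 genes at unadjusted p under 0.01, and 0 in both after Benjamini-Hochberg adjustment.

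At D3 the follicles of depilated skin are assigned to early anagen, as are those of P23 and P25. All 9 genes were lower at D3 than in natural early anagen, against 44.6% of all probe sets called and 26.1% lower. Shh was 174.5 and 118.4 at D3, against 1870.2 to 4406.4 in natural early anagen, a difference of -4.37 ± 0.39 (adjusted p = 4.17e-08), and Hhip differed by -3.69 or lower. Ptch1 differed by -2.65 ± 0.23, Gli2 by -2.39 ± 0.15, Gli1 by -2.38 ± 0.30, Gli3 by -1.05 ± 0.15, Cdon by -0.79 ± 0.26, Smo by -0.74 ± 0.15 and Boc by -0.41 ± 0.15. No array of the groups overlapped for any of the 9 genes, which held for 55.5% of all probe sets. The call of Boc was lost without P23 replicate 2, P25 replicate 1 or either D3 array, and that of Cdon without P23 replicate 1 or either D3 array. The other kept probe sets of the 9 genes were all lower as well. Hair shaft and inner root sheath markers were lower at D3, 5 of 5 each. So were 4 of 6 dermal papilla and 5 of 6 dermal fibroblast markers. The papilla sums were 928.7 to 1188 at D3 and 3758 to 6482 in natural early anagen. Those of fibroblasts were 50450 to 68730 and 121900 to 154400. Of 5 muscle markers 2 were higher, and of 3 adipocyte markers 1 was higher and 1 lower. The part of these cell types in the result was not tested.

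D3 was also set against telogen, with which natural early anagen was compared above on the same P44 arrays. Of the 9 genes 4 were lower and 0 higher, against 33.1% of all probe sets called and 19.7% lower. Boc fell by 0.79 ± 0.16 (adjusted p = 0.000648), Gli3 by 0.59 ± 0.16, Gli2 by 0.58 ± 0.16 and Hhip by a difference of -1.04 or lower (adjusted p = 0.0224), the last being lost without P44 replicate 1 or 2 or either D3 array and Gli2 without D3 replicate 1. Shh differed by -0.13 (-0.98 to 0.73), Ptch1 by 0.15 (-0.36 to 0.65), Gli1 by 0.22 (-0.44 to 0.87), Cdon by -0.31 (-0.87 to 0.26) and Smo by 0.06 (-0.25 to 0.38). Other probe sets were lower for Boc, by a difference of -0.96 ± 0.19 (adjusted p = 0.00063), and for Gli3, by -1.49 ± 0.28 (adjusted p = 0.000432). A further Gli3 probe set differed by -0.12 ± 0.26 (adjusted p = 0.752), that of Gli2 by -0.46 ± 0.20 (adjusted p = 0.0806), and those of Hhip by between -0.48 and -0.09 with arrays under the floor in both groups, so the calls of Gli2, Gli3 and Hhip depend on the probe set. Over the same arrays the 4 markers of dividing cells were all higher at D3 than in telogen. Mki67, a protein of dividing cells, was 4780.7 and 3503.8 at D3, against 600.8, 615.4 and 683.9 in telogen, a difference of 2.69 ± 0.28 (adjusted p = 1.23e-06), and differed by -0.58 ± 0.27 from natural early anagen (adjusted p = 0.0829). Of the 4 markers 1 was lower past the test at D3 than in natural early anagen. Summed over the 4 markers the signal was 8507 to 10940 at D3, against 13950 to 18610 in natural early anagen and 1381 to 1828 in telogen. Inner root sheath keratins and trichohyalin, structural proteins of the growing follicle, summed to 257.9 to 295.7 at D3, 24160 to 64390 in natural early anagen and 1230 to 4713 in telogen. Dermal fibroblast markers were lower at D3 than in telogen for 5 of 6 genes, with sums of 50450 to 68730 at D3 and 126900 to 190400 in telogen. Leukocyte markers were lower for 3 of 3, with sums of 6766 to 18740 at D3 and 32920 to 45500 in telogen. Also lower were 2 of 5 hair shaft and 1 of 6 dermal papilla markers. The part of these cell types in the result was not tested.

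**Figure D4:**
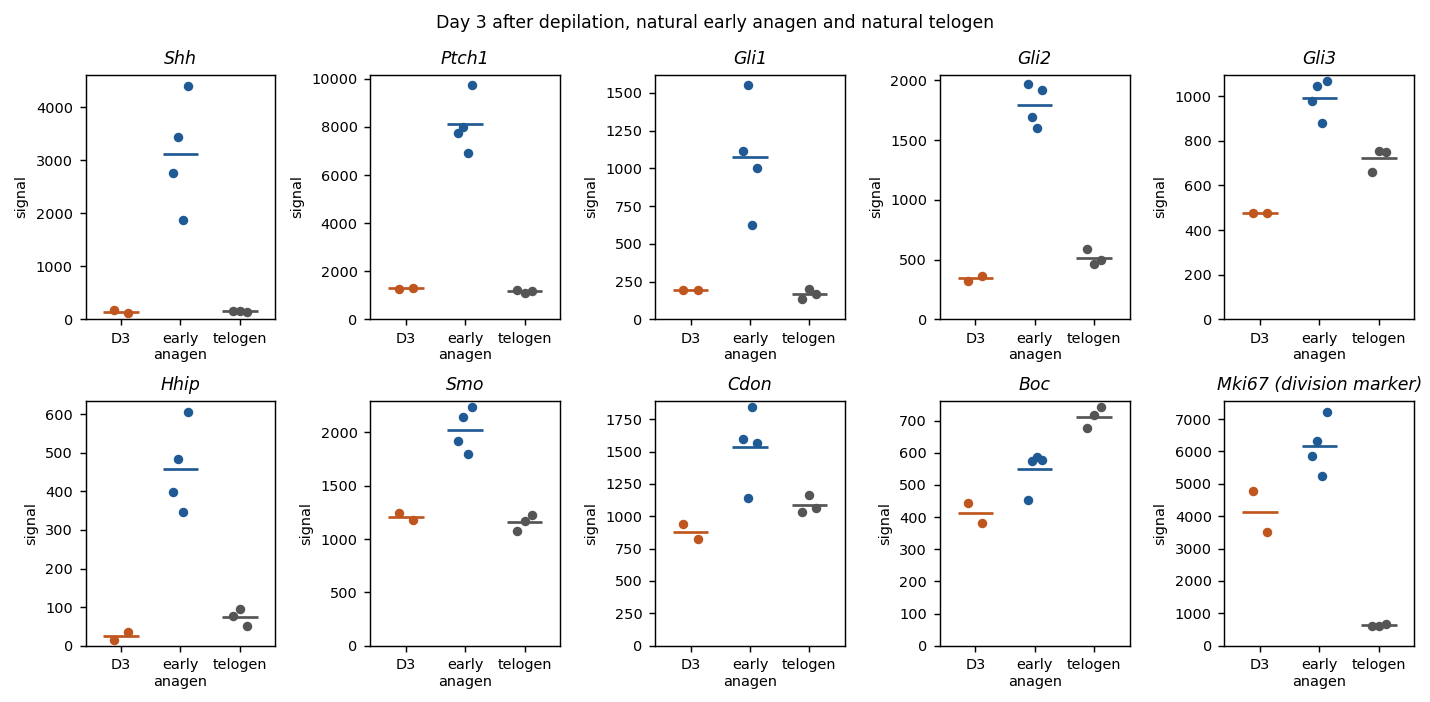
Signal (y axis, linear, from 0) on each array (points) and group mean (bar) at D3 after depilation, in natural early anagen and in telogen, for the 9 genes and Mki67. Shh, Ptch1 and Gli1 at D3 lay near telogen, whereas Mki67 at 3503.8 and 4780.7 was above every telogen array.

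The later phases were compared in the same way. At D5 against natural mid anagen 3 genes passed, against 23.6% of all probe sets, with Gli3 lower by a difference of -0.71 ± 0.16, Boc of -0.50 ± 0.16 and Cdon higher by 0.85 ± 0.27. Shh differed by -0.10 (-0.95 to 0.76), Ptch1 by 0.24 (-0.26 to 0.74) Gli1 by 0.41 (-0.25 to 1.06), Gli2 by 0.05 (-0.28 to 0.38), Hhip by -0.53 (-1.23 to 0.18) and Smo by 0.38 (0.06 to 0.70, adjusted p = 0.0789), so differences of about these sizes were not resolved. Without D5 replicate 1 none of the 3 calls remained, Cdon was also lost without P27 replicate 2, and Boc without P27 replicate 1 or 2 or D5 replicate 2. At D8 and D12 against natural late anagen 3 genes passed, against 26.5%, with Smo higher by 0.37 ± 0.13, Cdon by 0.65 ± 0.23 and Boc lower by a difference of -0.37 ± 0.13, at adjusted p between 0.0372 and 0.0396. The other 6 genes differed by between -0.07 (Hhip) and 0.21 (Gli2). None of the 3 passed without P29 replicate 3, D8 replicate 1 or D12 replicate 2, and Boc was lost without any 1 of the 7 arrays. Suprabasal and cornified epidermis markers were higher after depilation, 3 of 4, with sums of 55810 to 81720 against 28700 to 31360 in natural late anagen. Also higher were 3 of 3 leukocyte, 1 of 5 muscle and 1 of 6 dermal papilla markers. Fibroblast markers were lower for 3 of 6 and higher for 1, and adipocyte markers lower for 1 of 3. The part of these cell types was not tested. Another Boc probe set differed by 0.12 ± 0.16 (adjusted p = 0.604). At D17 against natural early catagen limma called 0 of the 9 genes, against 15.3% of all probe sets, also 0 at unadjusted p under 0.05, and the methods' test gave 0 at unadjusted p under 0.01 and after Benjamini-Hochberg adjustment. The 9 differences lay between -0.24 (Boc) and 0.34 (Ptch1). Another probe set of Gli3 and another of Ptch1 were lower after depilation in all 3 of these comparisons. That of Gli3 differed by -1.51 ± 0.28 at D5, -1.15 ± 0.24 at D8 and D12 and -1.11 ± 0.25 at D17 (adjusted p = 0.00427 at D17), and that of Ptch1 by -1.41 ± 0.49, -1.62 ± 0.41 and -1.42 ± 0.44 (adjusted p = 0.0297 at D17). The further probe sets of these genes did not pass at these times, with differences between -0.57 and 0.23, so the comparison of the cycles for Gli3 and Ptch1 depends on the probe set.

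The change between early and late anagen was also compared between the cycles. Natural minus depilation, it equals the D3 against natural early anagen difference minus that of D8 and D12 against natural late anagen. It is thus not independent of these 2 comparisons. They were -4.37 and 0.13 for Shh, where it mostly restates the D3 comparison, and -0.79 and 0.65 for Cdon. The change was 3.48 for Shh after depilation and -1.03 in the natural cycle. The difference (natural minus depilation) was -4.50 ± 0.52 (adjusted p = 1.03e-05). For Ptch1 it was 1.51 after depilation and -1.26 in the natural cycle, for Gli1 1.33 and -1.06, and for Gli2 1.61 and -0.99. For Hhip it was at least 2.62 after depilation, and the difference was -3.62 or lower. In all, 8 of the 9 genes differed, all negative, against 18.2% of all probe sets called and 10.6% negative, and Boc did not pass (-0.04 ± 0.20, adjusted p = 0.921). This count was 8 without any single array. It rests on the representative probe sets. Another Boc probe set differed by -0.87 ± 0.24 (adjusted p = 0.0165). Another Hhip probe set differed by -1.40 or lower (adjusted p = 0.0835) and a further one by -1.99 or lower (adjusted p = 0.031). The calls of Boc and Hhip thus depend on the probe set.

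Of 44 other genes of the pathway listed by role, 35 were measured by a kept probe set with a single symbol. Early anagen was higher than telogen for 10 of them and lower for 1, against 13.5% of all probe sets higher and 13.2% lower. Scube3, which releases ligand from cells, had 421.8 ± 81.3 in early anagen and 35.7 ± 2.2 in telogen (SD, n = 4 and 3), a difference of at least 3.54, since 1 telogen array was under the floor. Mycn, a target gene, differed by 3.48 ± 0.21, Kif7, a ciliary regulator of Gli proteins, by 1.54 ± 0.15 and Ccnd1, a cyclin, by 1.13 ± 0.19. In mid against early anagen 7 of the 35 were lower and 0 higher, against 9.27% of all probe sets lower. Disp1, which exports the ligand, was lower by a difference of -1.10 ± 0.15, Evc, a ciliary protein, of -1.07 ± 0.18, Gas1, a co-receptor, of -0.81 ± 0.17 and Kif7 of -0.66 ± 0.12. At mid against early catagen 5 were higher and 4 lower, against 17.4% of all probe sets higher and 17.9% lower, with Gas1 higher by 1.18 ± 0.24 and Scube2, which releases ligand, by 0.96 ± 0.22. Mycn was lower there by a difference of -2.53 ± 0.22 and Ccnd2, a cyclin, of -1.22 ± 0.25. Telogen against late anagen gave 8 higher and 8 lower, against 23% of all probe sets higher and 21.6% lower. Mycn was lower in telogen by a difference of -3.13 ± 0.17 and Scube3 of -2.20 or lower, while Gas1 was higher by 1.53 ± 0.19, as Cdon and Boc were, and Disp1 by 1.75 ± 0.25.

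At D5 against D3, 5 of the 35 rose and 0 fell, against the 1.95% of all probe sets higher. Mycn rose by 3.77 ± 0.32, Ccnd2 by 1.15 ± 0.21 and Tulp3, a ciliary trafficking protein, by 0.96 ± 0.19. Scube1, which binds ligand, rose by at least 1.71, since 1 D3 array was under the floor. At D3 against natural early anagen 18 of the 35 were lower and 4 higher, against 26.1% of all probe sets lower and 18.5% higher, and 6 of the 8 genes of ciliary transport were among those lower. Mycn had 86.9 ± 25.0 at D3 and 1710 ± 432 in natural early anagen (SD, n = 2 and 4), a difference of -4.30 ± 0.27. Kif7 was lower by a difference of -2.22 ± 0.23, Tulp3 of -1.55 ± 0.23 and Kif3a, a ciliary motor subunit, of -0.99 ± 0.14. At D3 against telogen 9 were lower and 3 higher, against 19.7% of all probe sets lower and 13.4% higher. Disp1 was lower by a difference of -1.32 ± 0.28, Sox9, a transcription factor of the follicle epithelium, of -0.92 ± 0.22 and Kif3a of -0.71 ± 0.15, while Csnk1a1, a kinase that phosphorylates Gli proteins, was higher by 0.51 ± 0.10.

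**Figure D5:**
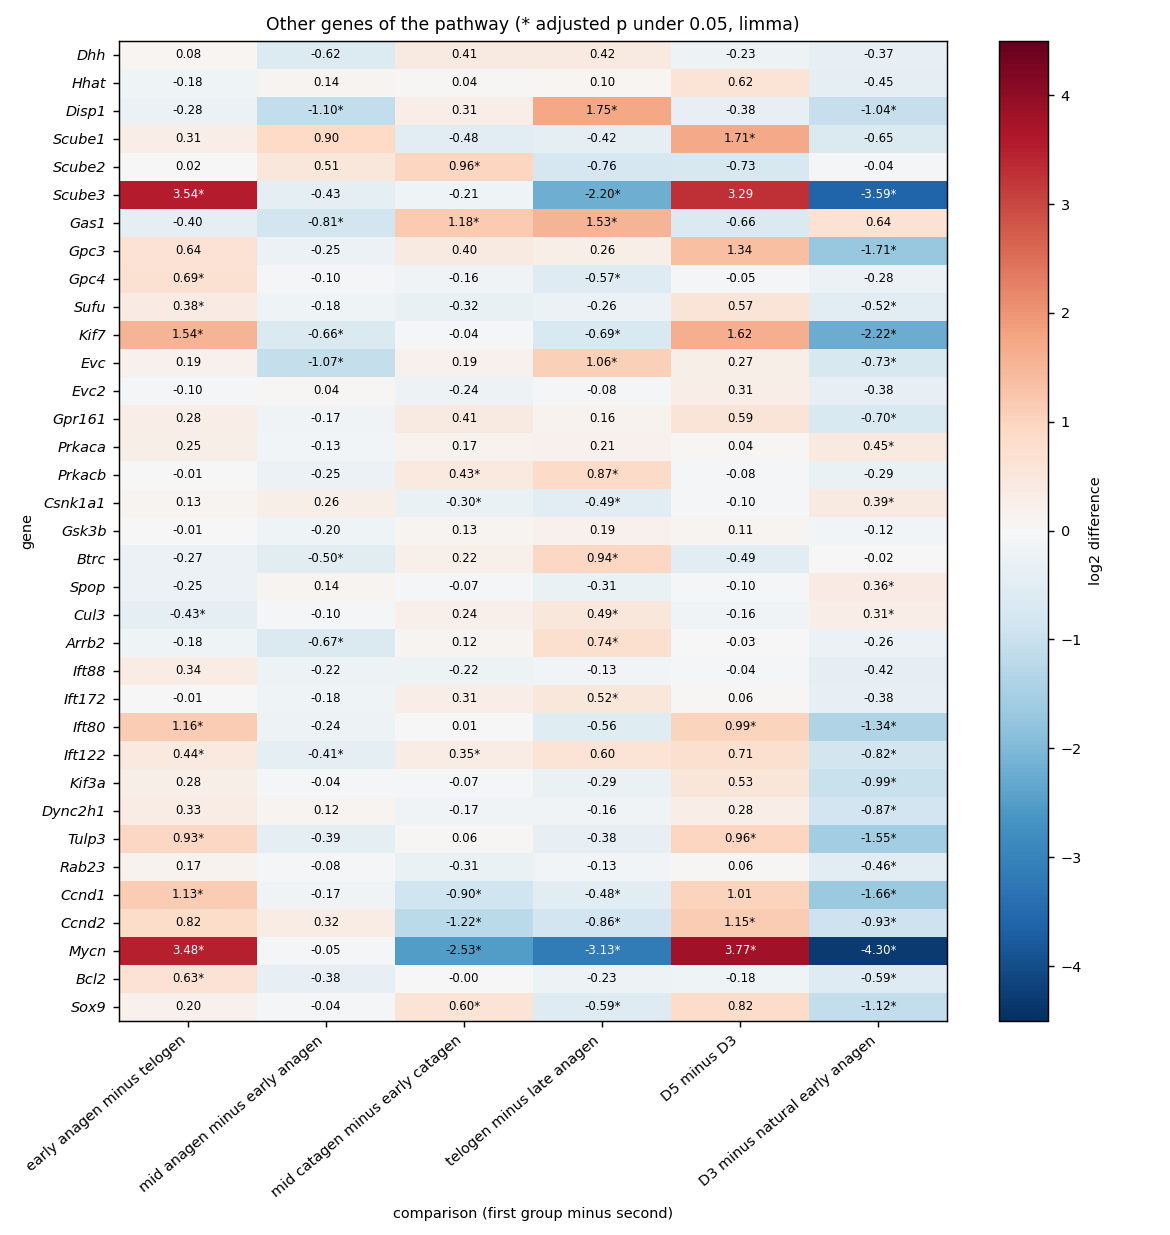
Log2 difference (colour and number) of 35 other pathway genes (rows, grouped by role) in 6 comparisons (columns, first group minus second), with an asterisk where the adjusted p of limma was under 0.05. Mycn and Scube3 were higher in early anagen than in telogen and lower at D3 than in natural early anagen.

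The 14 time-point means of Shh and Ptch1 correlated with r = 0.957, those of Ptch1 and Gli1 with 0.970 and those of Shh and Hhip with 0.949, while Shh and Cdon gave -0.08 and Shh and Boc -0.32. Of 12850 genes outside the 9, Ints7, a subunit of the Integrator complex, had the mean profile most like that of Shh (r = 0.978) and Ptch1 (r = 0.972), and Tmem97 that most like Gli1 (r = 0.967). Next to Shh came Hnrnpm, which encodes an RNA-binding protein (r = 0.973), Basp1 (0.968), Mex3a (0.967) and Tardbp (0.963). Next to Ptch1 came Ddx20 and Hnrnpr (0.967 each), Cdc6, a licensing factor of DNA replication, and Ruvbl2 (0.965 each), and next to Gli1 came Ints7 again (0.965), Nmral1 (0.961), Cad (0.958) and H1f10 (0.957). These correlations are over 14 means of the same arrays and are given as descriptions.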

How the data were processed

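The authors deposited linear signal intensity values, computed with MAS 5.0 (version not given in the sources used here) and scaled to a common mean, with trimmed means between 496.8 and 498.4 per array. The number of arrays limits the precision. A floor of 34.6, which is the 25th percentile over all arrays, was applied before the log2 transformation. Of 45037 probe sets, the 26988 above the array median on at least 3 of 33 arrays were kept. Genes were named through the platform annotation, where 34945 probe sets had 1 symbol, 932 several and 9160 none.

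Natural phases were compared in a fit of only those arrays, depilation time points in a fit of 10 arrays, and the cycles in a fit of all 33 with 1 mean per time point. F tests covered 22 natural arrays, with P34 left out, and 10 depilation arrays. Moderated statistics came from limma 3.58.1 in R 4.3.3 (lmFit, then eBayes), and p-values were adjusted by Benjamini-Hochberg across the 26988 probe sets. The scripts were tested on simulated data. Alternatives were other floors and filters, an offset, quantile normalization, median centring, 1 probe set per gene, the next probe set, sex as a covariate, a replicate block, a joint fit, other phase assignments, the methods' ANOVA and each array left out. All 9 genes are covered in every comparison, by value or as part of a range, and the 4 listed pathway genes with the smallest p are named in 7 comparisons. Genes and lists were chosen with earlier results of these data known.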

Additional observations from a re-analysis of the deposited data

Results flagged for a closer look

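In 27 tested groups of 4 to 6 arrays, 2 values stood apart from the rest of their group by Dixon's gap criterion at 95%. Chance meets this criterion in about 1 in 20 groups, so a count of 2 is near what chance gives. Hhip was 57.2 in P37 replicate 2, against 125.2 to 145.2 on the other early catagen arrays. Boc was 453.7 in P23 replicate 1, against 574.9 to 587.3 on the other early anagen arrays.

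By the representative probe sets, the change from early to late anagen differed between the cycles for 8 of the 9 genes (limma interaction). It is built from the comparisons of D3 and of late anagen between the cycles and is not independent of them. Expressed as natural minus depilation, the difference was -4.50 for Shh, -3.62 for Hhip, where the D3 floor makes it a bound, -2.77 for Ptch1, -2.60 for Gli2, -2.39 for Gli1, -1.44 for Cdon, -1.11 for Smo and -1.03 for Gli3, with adjusted p between 6.83e-08 and 0.007.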

How the results depend on the processing

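Of the values of single genes recomputed under the alternatives, 4543 kept their side of the threshold with no called value turning sign, 203 lost and 12 gained the call, and 3 reversed. Among the 4543, 80 values of 39 results that did not pass changed sign. The reversals came with the next probe set, where mid against early anagen gave 0.55 for Ptch1 and 1.76 for Hhip, and D8 and D12 against natural late anagen gave 0.12 for Boc; the cause was not tested. For telogen against mid catagen 1 gene passed with no filter, with the next probe set, with sex as a covariate and in the joint fit, and 0 with the replicate block and in the methods' ANOVA, whose calls are counted here after Benjamini-Hochberg adjustment. The replicate numbers did not pair the arrays: deviations correlated with mean r = 0.009 for arrays of the same number and -0.00502 for different numbers, and 17 of 32 arrays were nearest to their own number. The depilation F test gave 4 genes without the filter and 3 by the ANOVA. D3 against telogen gave 2 with median centring, 1 with the next probe set and 0 by the ANOVA. D5 against natural mid anagen gave 1 with the next probe set, 1 with sex and 0 by the ANOVA. D8 and D12 against natural late anagen gave 1 each with sex, with P34 added and by the ANOVA. D8 and D12 against D5 gave 1 in the joint fit, mid against early anagen 1 with P25 alone and 2 with P23 alone, and D5 against D3 0 by the ANOVA. At the methods' own threshold of unadjusted p under 0.01 the ANOVA gave 2 genes for telogen against mid catagen, 5 for the depilation F test, 2 for D3 against telogen, 1 each for D5 against natural mid anagen and D8 and D12 against natural late anagen, and 3 for D5 against D3. Leaving out 1 array gave 6 to 7 genes for early anagen against telogen, 2 to 5 for mid against early anagen, 4 to 6 for mid against early catagen, 0 to 1 for telogen against mid catagen, 7 to 8 for telogen against late anagen, 8 to 9 for the natural F test, 3 to 6 for D5 against D3, 0 to 1 for D8 and D12 against D5, 3 to 7 for the depilation F test, 2 to 4 for D3 against telogen, 7 to 9 for D3 against natural early anagen, 0 to 4 for D5 against natural mid anagen, 0 to 3 for D8 and D12 against natural late anagen and 8 for the interaction. Low signals of Hhip near the floor of 34.6 limit its differences.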
